A study of Mus musculus with 16 samples.

Results

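Expression of 8 genes of peroxisome proliferator-activated receptor (PPAR) signalling and fatty acid oxidation was followed in mouse small intestinal organoids: the receptors Ppara and Pparg, and Cpt1a, Pdk4, Angptl4, Plin2, Acadm and Ehhadh. They were the rows of the deposited expression table whose identifier is one of these symbols, 8 of 23847 rows, with 1 row for each. The series asked how ATG16L1-deficient organoids differ from wild-type ones, with or without tumour necrosis factor (TNF). Organoids are epithelial cultures grown from intestinal crypts. Each library was made from total RNA, and levels are in FPKM, fragment numbers divided by the length of the transcript and by library size.

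The 16 libraries formed 4 groups of 4. The dIEC group with TNF and the f/f group with TNF received 20 ng/ml murine TNF for 2 hours, and the dIEC and f/f groups without TNF were unstimulated. All organoids were of C57BL/6 background and at day 3 of culture. The f/f organoids carry the floxed Atg16L1 allele and are the wild-type group of the design, and the dIEC organoids are the ATG16L1-deficient ones. ATG16L1 is part of the machinery that attaches LC3 proteins to autophagosome membranes. The labels used here do not name a Cre driver, the ages of the mice, or the mouse or culture behind a library. The p-values therefore refer to the variation among these libraries, part or all of which may be technical.

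PPARs are nuclear receptors that bind fatty acids and related lipids, pair with retinoid X receptors and switch on genes of lipid handling. PPAR-alpha, encoded by Ppara, drives fatty acid oxidation in liver, heart and the absorptive epithelium of the small intestine, and ketone body formation in liver. PPAR-gamma, encoded by Pparg, is best known from fat cells and is also present in intestinal epithelium. Beta-oxidation shortens fatty acids step by step, in mitochondria for most chain lengths and in peroxisomes for very long or branched chains.

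Depth and identity of the libraries were checked first. Depth was estimated at about 37100000 to 42200000 fragments per library, from those low FPKM values that fell on steps of whole fragments. Atg16l1 measured 7.24 ± 0.414 FPKM in dIEC organoids with TNF and 10.4 ± 0.679 in f/f organoids with TNF (SD, n = 4), and 5.64 ± 0.573 in unstimulated dIEC and 8.97 ± 0.472 in unstimulated f/f organoids. An FPKM is summed over all exons, and exons that were not deleted can still give reads. Nfkbia, an early TNF target, measured 212 ± 13.5 FPKM in dIEC with TNF and 183 ± 23.7 in f/f with TNF, against 20.2 ± 1.62 in unstimulated dIEC and 17.2 ± 0.401 in unstimulated f/f organoids. The epithelial marker Epcam lay between 291 and 367 FPKM in all 16 libraries. Of the adipocyte markers, which matter here because Pparg and Plin2 are abundant in fat cells, Lep was at 0 in 16 libraries and Adipoq and Plin1 at 0 in 15, and the 4 markers summed to at most 0.273 FPKM in any library. Library 1 of both f/f groups and library 4 of both dIEC groups stood apart from the other 12 on the second principal component, and in these 4 the deviation of genes from their group mean fell with transcript GC content (Spearman rho across genes -0.804 to -0.727, against 0.0957 to 0.709 in the others). Deviations from a group mean balance out within the group, so the values of the other 12 libraries are not independent of those of these 4. For the 8 genes, each call that changes without these 4 libraries is given with both values.

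Levels of the 8 genes spanned a wide range on the per-length scale. Averaged over all 16 libraries, Acadm stood at 53.2 FPKM, Ehhadh at 50.9, Plin2 at 28.0, Cpt1a at 22.3, Pparg at 17.2, Ppara at 9.09, Angptl4 at 4.80 and Pdk4 at 0.149. The beta-oxidation enzymes Acadm and Ehhadh were thus the most abundant of the 8, Pparg exceeded Ppara in every group, and Pdk4 rested on few fragments. Log2 changes were estimated on log2(FPKM + 1) with limma for the 11097 genes with a mean of at least 1 FPKM, which included 7 of the 8 genes. On this scale the change of a gene with low FPKM comes out too small. A gene was called at a Benjamini-Hochberg adjusted p under 0.05 over all genes tested. Pdk4 fell below the minimum and was tested by exact permutation of its FPKM.

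**Figure D1:**
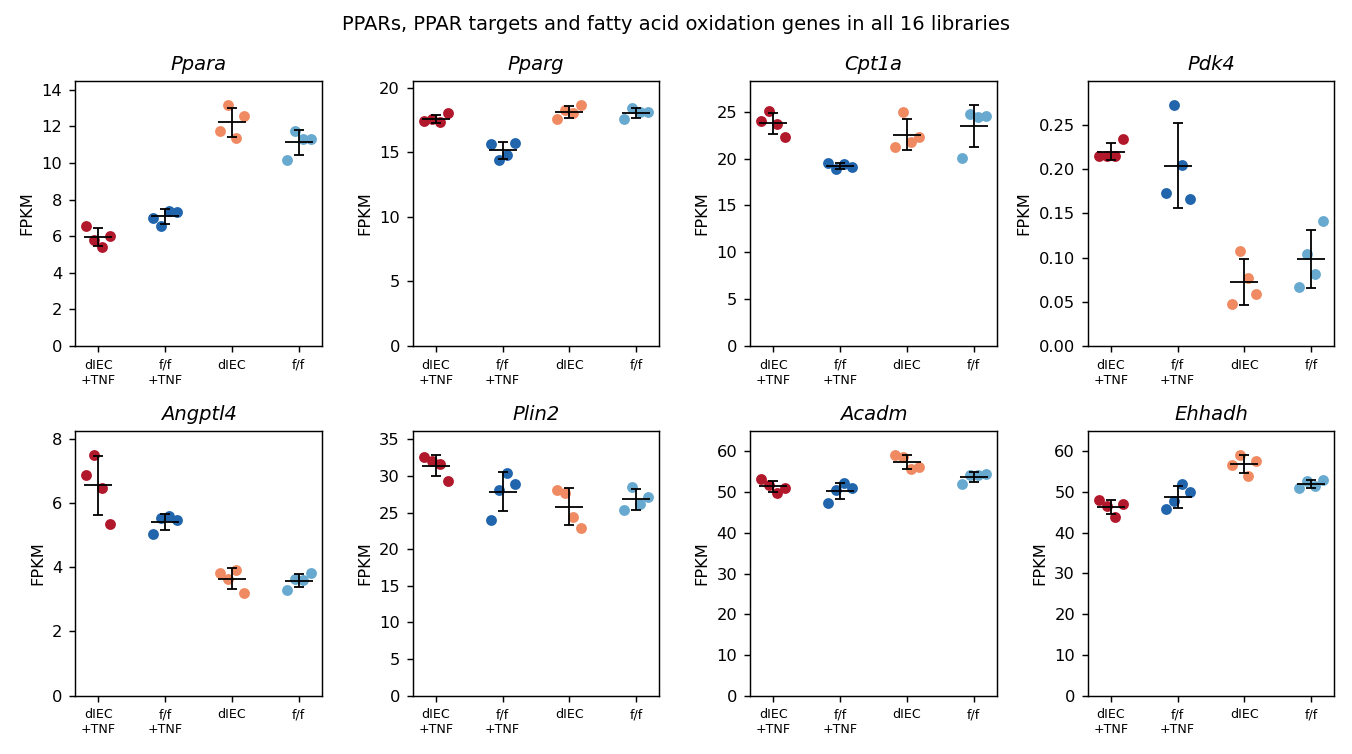
FPKM of the 8 genes in all 16 libraries, by group (dIEC with TNF, f/f with TNF, unstimulated dIEC, unstimulated f/f); points are libraries, bars the mean and SD of 4. Ppara was lower and Angptl4 higher in both TNF groups, while the f/f group with TNF stood below the other 3 groups for Pparg, and for Cpt1a at 18.9 to 19.5 FPKM.

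Promoter sequences are shown for the receptor with the largest fall under TNF and for the pair that differed between genotypes during TNF under every alternative run, with all windows of these 3 genes. RefSeq windows of build GRCm38.p6 run from 250 bases before to 50 after a gene's start. 7 of the 8 genes had 9 such windows, and Angptl4 had none in the table used. Capitals mark matches, on either strand, to AGGTCA, the 6-base motif recognised by PPARs and many other nuclear receptors.
Ppara, chr15:85735526-85735825, plus strand: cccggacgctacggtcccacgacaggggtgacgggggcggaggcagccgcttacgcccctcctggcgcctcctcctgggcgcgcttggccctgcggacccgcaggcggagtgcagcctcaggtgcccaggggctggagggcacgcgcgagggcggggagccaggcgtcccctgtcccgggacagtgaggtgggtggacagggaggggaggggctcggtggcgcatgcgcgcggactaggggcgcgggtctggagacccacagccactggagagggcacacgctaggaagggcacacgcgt
Pparg, chr6:115360894-115361193, plus strand: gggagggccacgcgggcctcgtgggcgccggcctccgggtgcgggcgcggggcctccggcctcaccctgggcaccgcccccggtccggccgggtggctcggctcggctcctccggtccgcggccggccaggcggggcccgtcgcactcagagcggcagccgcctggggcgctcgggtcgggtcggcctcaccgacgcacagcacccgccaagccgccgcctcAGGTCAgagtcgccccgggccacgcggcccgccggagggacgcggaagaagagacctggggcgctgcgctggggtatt
Pparg, chr6:115362099-115362398, plus strand: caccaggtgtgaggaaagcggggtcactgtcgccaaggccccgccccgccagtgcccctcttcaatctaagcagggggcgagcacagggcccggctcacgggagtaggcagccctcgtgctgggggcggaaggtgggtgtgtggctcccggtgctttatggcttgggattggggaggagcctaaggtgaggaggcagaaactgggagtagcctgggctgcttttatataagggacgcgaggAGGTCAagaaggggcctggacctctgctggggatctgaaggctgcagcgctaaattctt
Pparg, chr6:115421816-115422115, plus strand: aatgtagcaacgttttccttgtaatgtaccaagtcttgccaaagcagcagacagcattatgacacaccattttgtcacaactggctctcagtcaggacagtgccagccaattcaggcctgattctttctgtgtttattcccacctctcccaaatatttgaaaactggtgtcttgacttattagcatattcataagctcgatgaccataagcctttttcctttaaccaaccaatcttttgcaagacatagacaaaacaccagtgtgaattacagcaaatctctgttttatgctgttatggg
Cpt1a, chr19:3323051-3323350, plus strand: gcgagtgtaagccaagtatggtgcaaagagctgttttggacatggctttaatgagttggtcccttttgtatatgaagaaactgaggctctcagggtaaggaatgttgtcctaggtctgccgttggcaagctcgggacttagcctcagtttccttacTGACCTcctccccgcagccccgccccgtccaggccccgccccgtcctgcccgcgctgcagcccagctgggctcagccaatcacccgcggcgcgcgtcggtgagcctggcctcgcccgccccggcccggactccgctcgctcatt
AGGTCA stood at -28 to -23 and at -9 to -4 relative to the starts of the upper and the middle Pparg window, neither form was in the lower one, and its reverse complement TGACCT stood at -94 to -89 in the Cpt1a window. TGACCT was also found in the windows of Acadm at -249 and Plin2 at -218, and neither form in those of Ppara, Ehhadh or Pdk4. Among all 32851 windows, 16.3% held it in either form. AGGNCA repeated in the same direction with 1 base between, the type of site of PPARs with retinoid X receptors, was in 0.381% of all windows on either strand and in 0 of these 9. Matches are descriptions of these letters, not of binding.

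TNF lowered Ppara in both genotypes, the largest change among the 7 tested genes. Ppara lies on chromosome 15 (85734983 to 85802819, plus strand, GRCm38, GENCODE vM21). It measured 6.57, 5.80, 5.404 and 6.02 FPKM in the dIEC libraries with TNF, against 11.8, 13.2, 11.4 and 12.6 in the unstimulated dIEC libraries. In f/f organoids it measured 6.99, 6.56, 7.39 and 7.34 FPKM with TNF, against 10.1, 11.7, 11.3 and 11.3 without. Every TNF library was below every unstimulated library in both genotypes. The log2 change was -0.93 in dIEC (SE 0.0613, adjusted p = 1.17e-08) and -0.59 in f/f (adjusted p = 2.35e-06). In bulk samples such as these, fewer cells of a type and less RNA per cell cannot be told apart.

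Cell type markers moved with TNF as well. Of 5 stem cell markers, 4 were called higher with TNF in each genotype and 0 lower, with summed FPKM of 1255 to 1336 in dIEC with TNF and 1475 to 1651 in f/f with TNF, against 873 to 1050.5 in unstimulated dIEC and 1011 to 1224 in unstimulated f/f organoids. Of 5 Paneth cell markers, 3 were called higher in each genotype and 0 lower. Of 10 enterocyte markers, 3 were called higher and 4 lower in dIEC, and 6 higher and 1 lower in f/f. Of 5 general epithelial markers, 4 were called higher in dIEC and 3 in f/f, with 0 lower. Of 5 goblet cell markers, 1 was called higher and 1 lower in each genotype. Over all tested genes 33.4% rose and 19.8% fell in dIEC, and 26.9% rose and 20.3% fell in f/f. The part of these marker lists in the TNF changes of the 8 genes was not tested.

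Pparg fell under TNF in f/f organoids and was not called in dIEC organoids. Pparg lies on chromosome 6 (115360951 to 115490399, plus strand). It overlaps the antisense gene Gm44079, and the sources used here do not give whether the counting used strand. Its level was 17.4, 17.6, 17.3 and 17.99 FPKM in dIEC libraries with TNF, against 17.6, 18.3, 18.01 and 18.6 in unstimulated dIEC libraries. The f/f libraries measured 15.6, 14.4, 14.8 and 15.7 FPKM with TNF, against 17.5, 18.4, 18.1 and 18.1 without TNF. The 2 dIEC groups overlapped and the 2 f/f groups did not. Pparg fell by 0.24 on the log2 scale in f/f (SE 0.0356, adjusted p = 7.12e-05). In dIEC the log2 change was -0.04 (95% interval -0.12 to 0.03, adjusted p = 0.328), and with median-of-ratios scaling it was -0.15 and called (adjusted p = 0.0235; 0.0229 with quantile normalization). The ratio of Ppara to Pparg FPKM was 0.339 ± 0.0278 in dIEC with TNF and 0.467 ± 0.0225 in f/f with TNF, against 0.674 ± 0.0367 in unstimulated dIEC and 0.616 ± 0.0256 in unstimulated f/f organoids (SD, n = 4).

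Of the 7 tested genes, TNF lowered 3 (Ppara, Acadm and Ehhadh) and raised 2 (Angptl4 and Plin2) in dIEC organoids, and lowered 3 (Ppara, Pparg and Cpt1a) and raised 1 (Angptl4) in f/f organoids. Over all genes tested in dIEC, 53.1% were called, 33.4% higher and 19.8% lower. In f/f 47.2% were called, 26.9% higher and 20.3% lower, so the totals of 5 and 4 of 7 are near those backgrounds. Higher genes made up 62.8% of all calls in dIEC and 57.0% in f/f, but 46.0% and 45.1% with median-of-ratios scaling, 46.5% and 45.2% with quantile normalization, and 52.1% in both after removal of the GC trend. In dIEC 6 of 8 genes had groups that did not overlap, 3 above and 3 below, where 42.5% of the tested genes did, 26.2% above and 16.3% below. In f/f there were 5 of 8, 2 above and 3 below, where 44% did, 24.1% above and 19.9% below. Pdk4 is counted above in both genotypes, although it is not among the tested genes that form these shares. The 2 genotypes have separate TNF and unstimulated libraries, so these TNF comparisons share no control. They do share the estimate of the spread, which was fitted over all 16 libraries.

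Cpt1a encodes the outer mitochondrial membrane enzyme that makes acylcarnitines, the entry step of long-chain fatty acids into mitochondria. It lies on chromosome 19 (3322334 to 3385733, plus strand). Cpt1a measured 24.0, 25.04, 23.7 and 22.4 FPKM in dIEC with TNF, against 21.2, 25.02, 21.7 and 22.3 in unstimulated dIEC. In f/f it measured 19.5, 18.9, 19.5 and 19.1 FPKM with TNF, against 20.1, 24.8, 24.4 and 24.5 without. All 4 f/f libraries with TNF were below all unstimulated ones, with f/f library 1 the lowest of the unstimulated group by a wide gap. The log2 change in f/f was -0.27 (SE 0.0649, adjusted p = 0.0035), and -0.34 without the 4 libraries that stood apart (adjusted p = 0.000161). In dIEC it was 0.07 (95% interval -0.07 to 0.21, adjusted p = 0.362).

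Acadm, the medium-chain acyl-CoA dehydrogenase of mitochondrial beta-oxidation, lies on chromosome 3 (153922357 to 153944632, minus strand). It measured 53.2, 51.8, 49.9 and 51.0 FPKM in dIEC with TNF, against 59.2, 58.5, 55.7 and 56.2 in unstimulated dIEC. In f/f the values were 47.4, 50.4, 52.2 and 51.0 FPKM with TNF, against 51.9, 54.2, 54.2 and 54.6 without. The dIEC groups did not overlap, while in f/f the highest TNF library exceeded the lowest unstimulated one. Acadm fell by 0.15 in dIEC (adjusted p = 0.00336), and in f/f its log2 change of -0.09 missed the threshold (95% interval -0.18 to -0.01, adjusted p = 0.0542). The f/f change was called without the unstimulated f/f library 1 (adjusted p = 0.0407), the unstimulated dIEC library 4 (0.0490) or the TNF-treated f/f library 3 (0.0406), at -0.08 without the 4 libraries that stood apart (0.0445), and after median-of-ratios scaling, at -0.17 (0.00119). In all, 11 of 28 alternatives called it.

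Ehhadh, the peroxisomal bifunctional enzyme that catalyses consecutive steps of beta-oxidation, lies on chromosome 16 (21761287 to 21787807, minus strand). Its FPKM were 48.0, 46.4, 43.9 and 46.9 in dIEC with TNF, against 56.6, 59.0, 53.9 and 57.5 in unstimulated dIEC. In f/f they were 45.7, 47.6, 51.8 and 50.03 with TNF, against 51.0, 52.6, 51.4 and 52.9 without. Separation was complete in dIEC, and in f/f the groups overlapped through the TNF-treated library 3. Ehhadh fell by 0.29 in dIEC (SE 0.0441, adjusted p = 7.39e-05). In f/f the log2 change was -0.09 (95% interval -0.18 to 0.00, adjusted p = 0.111), and it was called without the TNF-treated f/f library 3 (-0.12, adjusted p = 0.0495) and after median-of-ratios scaling (-0.17, adjusted p = 0.00491).

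Angptl4 encodes a secreted inhibitor of lipoprotein lipase and is a target of PPARs, glucocorticoids and hypoxia. It lies on chromosome 17 (33773750 to 33781830, minus strand). Its level was 6.87, 7.50, 6.47 and 5.34 FPKM in dIEC with TNF, against 3.83, 3.64, 3.92 and 3.20 in unstimulated dIEC. The f/f libraries had 5.04, 5.54, 5.60 and 5.46 FPKM with TNF, against 3.30, 3.62, 3.603 and 3.81 without. TNF libraries stood above unstimulated ones in both genotypes, and library 4 was the lowest in both dIEC groups. Angptl4 rose by 0.69 in dIEC (SE 0.0775, adjusted p = 3.37e-06) and by 0.48 in f/f (adjusted p = 0.000136).

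Plin2 encodes perilipin 2, a coat protein of lipid droplets, and lies on chromosome 4 (86648386 to 86670060, minus strand). It measured 32.7, 32.1, 31.7 and 29.3 FPKM in dIEC with TNF, against 28.2, 27.6, 24.4 and 23.0 in unstimulated dIEC. In f/f it measured 24.0, 28.1, 30.4 and 28.9 FPKM with TNF, against 25.4, 28.6, 26.1 and 27.1 without. The dIEC groups were separate and the f/f groups were interleaved. Plin2 rose by 0.28 in dIEC (SE 0.0747, adjusted p = 0.00592), with a log2 change in f/f of 0.05 (95% interval -0.11 to 0.21, adjusted p = 0.604).

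Pdk4 encodes a pyruvate dehydrogenase kinase that restrains glucose oxidation, and lies on chromosome 6 (5483351 to 5496309, minus strand). It measured 0.215, 0.214, 0.215 and 0.234 FPKM in dIEC with TNF, against 0.0472, 0.108, 0.0763 and 0.0587 in unstimulated dIEC. In f/f it measured 0.173, 0.272, 0.204 and 0.166 FPKM with TNF, against 0.0664, 0.104, 0.0812 and 0.142 without. These values correspond to about 7 to 38 fragments per library, so each rests on few reads. TNF libraries lay above unstimulated libraries in both genotypes, 3.03-fold in dIEC and 2.07-fold in f/f by the means (p = 0.0286 in each genotype by a two-sided exact permutation test, which with 4 against 4 libraries can go no lower). With log2(FPKM + 0.1) and no minimum mean, an alternative chosen after seeing the data, limma gave log2 changes of 0.90 in dIEC (adjusted p = 0.000106) and 0.62 in f/f (adjusted p = 0.00266).

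**Figure D2:**
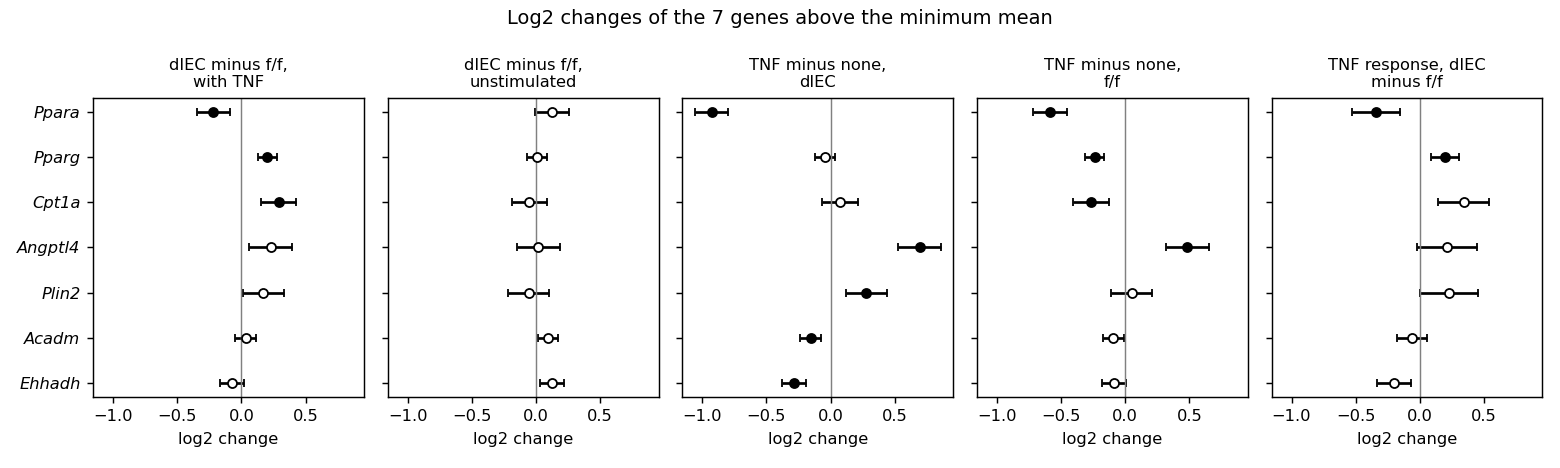
Log2 changes of the 7 genes above the minimum mean in the 5 contrasts, with 95% intervals from limma; filled points were called at an adjusted p under 0.05. Ppara and Angptl4 were called under TNF in both genotypes, and Pparg and Cpt1a were higher in dIEC than in f/f organoids with TNF.

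During TNF, Pparg and Cpt1a were higher in dIEC than in f/f organoids. Pparg was 17.6 ± 0.2996 FPKM in dIEC with TNF and 15.1 ± 0.654 in f/f with TNF (SD, n = 4). Its log2 change was 0.20, with an SE of 0.0356 and an adjusted p = 0.00222. Cpt1a was 23.8 ± 1.104 FPKM in dIEC with TNF and 19.2 ± 0.299 in f/f with TNF, a log2 change of 0.29 (adjusted p = 0.0125). For both genes all 4 dIEC libraries were above all 4 f/f libraries. The same f/f libraries with TNF also enter the TNF change in f/f and the difference of responses, so these comparisons are not independent. Both calls between genotypes with TNF held under all 28 alternatives, with log2 changes of 0.16 to 0.22 for Pparg and 0.25 to 0.33 for Cpt1a.

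Ppara went the other way, with 5.95 ± 0.485 FPKM in dIEC with TNF and 7.07 ± 0.382 in f/f with TNF, a log2 change of -0.22 (SE 0.0613, adjusted p = 0.0482). The highest dIEC library, at 6.57 FPKM, lay just above the lowest f/f library, at 6.56 FPKM. This call was lost when any one of 10 libraries was left out (adjusted p 0.0573 to 0.144), namely unstimulated f/f 2, 3 and 4, unstimulated dIEC 1, TNF-treated f/f 1, 3 and 4 and TNF-treated dIEC 2, 3 and 4. It was also lost when only the compared groups were fitted (adjusted p = 0.103). In all, 16 of 28 alternatives lost this call for Ppara. Angptl4 had a log2 change of 0.23 (95% interval 0.06 to 0.39, adjusted p = 0.105), and was called after quantile normalization (0.23, adjusted p = 0.0388), at 0.31 without the TNF-treated dIEC library 4 (adjusted p = 0.00964) and at 0.28 without the 4 libraries that stood apart (adjusted p = 0.00298). Plin2 (0.17, adjusted p = 0.232), Acadm (0.03, adjusted p = 0.771) and Ehhadh (-0.07, adjusted p = 0.437) were not called, and Pdk4 gave p = 0.514 by exact permutation. Thus 3 of 7 genes were called, 2 higher and 1 lower, where 6.5% of all tested genes were, 3.79% higher and 2.7% lower. Groups did not overlap for 2 of the 7 tested genes, both higher in dIEC, against 13.9% of all tested genes in either direction and 8.64% higher. In the same comparison 2 of 5 Paneth cell markers (Lyz1 and Mptx2) were called lower in dIEC with TNF and 0 higher, and of 10 enterocyte markers 1 was called higher and 2 lower, or 2 and 6 without the 4 libraries that stood apart; their part in these differences was not tested.

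Without stimulation, 0 of 7 genes were called between dIEC and f/f organoids by limma, against 2.32% of all tested genes. At an unadjusted p under 0.05 there were 2, Acadm and Ehhadh. Ehhadh measured 56.7 ± 2.17 FPKM in dIEC and 51.9 ± 0.913 in f/f organoids, a log2 change of 0.12 (95% interval 0.03 to 0.22, adjusted p = 0.234). Acadm measured 57.4 ± 1.70 FPKM in dIEC and 53.7 ± 1.22 in f/f organoids, a log2 change of 0.09 (95% interval 0.01 to 0.18, adjusted p = 0.335). All 4 dIEC libraries exceeded all 4 f/f libraries for these 2 enzymes, and 7.02% of tested genes had groups that did not overlap, 4.05% with dIEC above. For Pparg the 95% interval was -0.07 to 0.08, and for Cpt1a -0.19 to 0.09. Pdk4 averaged 0.0725 ± 0.0264 FPKM in dIEC and 0.0983 ± 0.0328 in f/f (exact permutation test, p = 0.257). Enterocyte markers moved with this comparison: 4 of 10 were called higher in dIEC and 0 lower, and their summed FPKM ranged from 2998 to 3547 in dIEC and from 2659 to 2842 in f/f organoids. Leaving out unstimulated f/f library 1, 2 or 4, or unstimulated dIEC library 2, left 2 called. Paneth cell markers moved too, with 4 of 5 (Ang4, Lyz1, Mmp7 and Mptx2) called lower in dIEC and 0 higher, and a summed FPKM of 2939 to 3553 in dIEC and 3718 to 4367 in f/f organoids. The part of either list in the values of Acadm and Ehhadh was not tested.

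The difference between the TNF responses of dIEC and f/f organoids was called for Ppara and Pparg, in opposite directions. It was -0.34 for Ppara (SE 0.0866, adjusted p = 0.0450) and 0.20 for Pparg (SE 0.0503, adjusted p = 0.0470), where 3.29% of all tested genes were called, 1.9% lower and 1.39% higher. Both calls were close to the threshold. The call for Ppara was lost when any one of 13 libraries was left out (adjusted p 0.0519 to 0.1005), all but unstimulated dIEC 3, TNF-treated f/f 2 and TNF-treated dIEC 1, and without the 4 libraries that stood apart (adjusted p = 0.0813). The call for Pparg was lost without any one of 12 libraries (adjusted p 0.0733 to 0.105), all but unstimulated f/f 1, unstimulated dIEC 4 and TNF-treated f/f 1 and 4, and with median-of-ratios scaling (adjusted p = 0.3001) or quantile normalization (adjusted p = 0.340).

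For Cpt1a the difference of responses was 0.34 (95% interval 0.14 to 0.54, adjusted p = 0.0606). Without unstimulated f/f library 1 it was 0.41 and called (adjusted p = 0.00583), without unstimulated dIEC library 2 it was 0.39 (adjusted p = 0.0304), and without the 4 libraries that stood apart 0.44 (adjusted p = 0.00498). It was also called at 0.31 with median-of-ratios scaling (adjusted p = 0.0261) and at 0.30 with quantile normalization (adjusted p = 0.0493). Ehhadh had a difference of -0.20 (95% interval -0.33 to -0.07, adjusted p = 0.117). The intervals for Plin2 (0.00 to 0.45), Angptl4 (-0.02 to 0.44) and Acadm (-0.17 to 0.05) included values of no or little difference. For Angptl4 the difference was 0.21 and not called in the main fit (adjusted p = 0.454). It was called without the 4 libraries that stood apart (0.25, adjusted p = 0.0458) and with sample weights (0.24, adjusted p = 0.0252). Enterocyte markers differed in the same comparison, with 5 of 10 called lower in the dIEC response and 0 higher, or 8 and 0 without the 4 libraries that stood apart. Their summed FPKM were 2361 to 2617 in dIEC with TNF and 2584 to 3022 in f/f with TNF, and their part in these differences was not tested.

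Around the receptors, the list of binding partners and cofactors (retinoid X receptors, PPAR-gamma coactivators, corepressors and the third PPAR) had 9 measured genes. Of these, 3 rose and 0 fell with TNF in dIEC and 5 rose and 0 fell in f/f, where 33.4% and 26.9% of all tested genes rose. The numbers that rose were 1 and 4 with median-of-ratios scaling and 1 and 3 with quantile normalization, and after removal of the GC trend 3 rose and 2 fell in dIEC and 4 rose and 1 fell in f/f. In dIEC 5 rose without the 4 libraries that stood apart, without unstimulated dIEC library 2 or without TNF-treated f/f library 1, and in f/f 2 or 3 rose without unstimulated f/f library 1 or TNF-treated f/f library 2, 3 or 4. Their median log2 change was 0.17 in dIEC and 0.21 in f/f, beside 0.09 and 0.05 over all tested genes. Ppard, which encodes PPAR-delta, measured 11.8, 13.1, 13.3 and 6.96 FPKM in dIEC with TNF, against 6.24, 7.45, 6.39 and 4.46 in unstimulated dIEC. It rose by 0.76 in dIEC (adjusted p = 0.00376). The low value in each dIEC group was that of library 4. In f/f Ppard rose by 0.56 (adjusted p = 0.0247), a call lost without unstimulated f/f library 1 (adjusted p = 0.0825) or TNF-treated f/f library 2, 3 or 4 (0.0729, 0.0518 and 0.0689). Ppara and Ppard thus had log2 changes of opposite sign under TNF in both genotypes. Ncoa1, a nuclear receptor coactivator, rose by 0.18 in dIEC (adjusted p = 0.00953) and by 0.31 in f/f (adjusted p = 0.00023).

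Other PPAR target genes moved in both directions under TNF. Of 23 listed, 19 passed the minimum, and in each genotype 7 rose and 4 fell. Over all tested genes 33.4% rose and 19.8% fell in dIEC, and 26.9% rose and 20.3% fell in f/f. The counts of this list are thus near the background. The median log2 change was 0.13 in dIEC and 0.17 in f/f, beside 0.09 and 0.05 over all tested genes. Among genes of ketone body metabolism, Oxct1, which activates acetoacetate for use as fuel, fell by 0.56 in dIEC (adjusted p = 9.24e-08) and by 0.51 in f/f (adjusted p = 3.21e-07), and Acat1, a mitochondrial thiolase, fell by 0.26 in dIEC (adjusted p = 8.99e-06) and by 0.37 in f/f (adjusted p = 3.58e-07).

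Cd36, a fatty acid translocase of the cell surface, fell with TNF in both genotypes. It measured 3.49, 3.29, 3.04 and 4.29 FPKM in dIEC with TNF, against 15.4, 13.3, 15.3 and 16.6 in unstimulated dIEC. In f/f its level was 5.92, 5.26, 5.88 and 5.60 FPKM with TNF, against 12.5, 10.8, 11.5 and 11.0 without. All 4 groups were separate from each other, with the widest span in dIEC. The TNF response was -1.84 in dIEC and -0.90 in f/f, a difference of -0.94 (adjusted p = 0.000288), and with TNF Cd36 was lower in dIEC than in f/f (-0.56, adjusted p = 0.000374). Vnn1, a pantetheinase and PPAR-alpha target, was 4.86 ± 0.445 FPKM in dIEC with TNF and 2.89 ± 0.1005 in f/f with TNF (SD, n = 4; log2 change 0.59, adjusted p = 0.000255). Acsl1, which activates long-chain fatty acids to acyl-CoA, rose by 0.41 in dIEC (adjusted p = 5.11e-06) and by 0.40 in f/f (adjusted p = 8.43e-06).

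**Figure D3:**
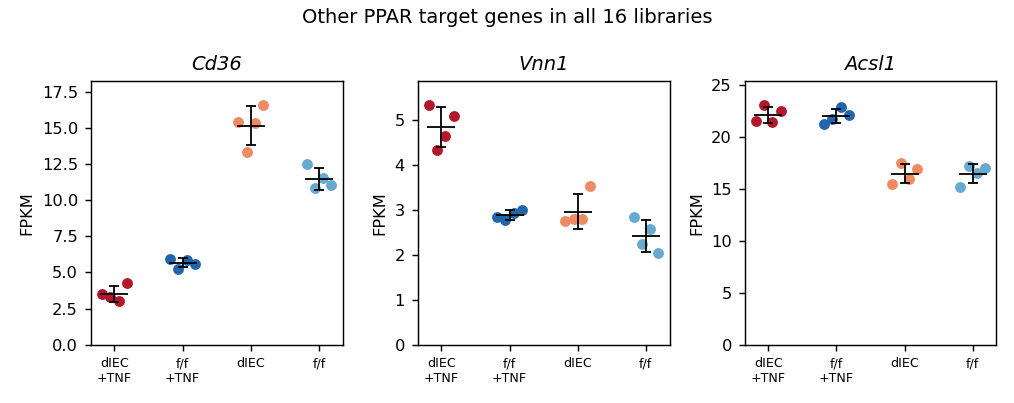
FPKM of 3 other PPAR target genes in all 16 libraries, by group (dIEC with TNF, f/f with TNF, unstimulated dIEC, unstimulated f/f); points are libraries, bars the mean and SD of 4. Cd36 was lowest in dIEC organoids with TNF, at 3.53 ± 0.540 FPKM, Vnn1 was highest in that group, and Acsl1 was higher with TNF in both genotypes.

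Among peroxisomal oxidation genes more fell than rose. Of 18 listed and tested, 9 fell and 1 rose with TNF in dIEC, and 5 fell and 1 rose in f/f, or 8 and 1 with median-of-ratios scaling and 10 and 1 after removal of the GC trend. Without these alternatives the shares called in either direction were near the all-gene 53.1% in dIEC and below the 47.2% in f/f. By direction, 19.8% of all tested genes fell in dIEC and 20.3% in f/f, or 27.4% and 26.4% with median-of-ratios scaling. The 9 of 18 that fell in dIEC are above that share. The median log2 change was -0.18 in dIEC and -0.08 in f/f. Scp2, a sterol carrier protein and peroxisomal thiolase, measured 90.5 ± 4.79 FPKM in dIEC with TNF and 104 ± 2.99 in f/f with TNF, against 171 ± 8.91 in unstimulated dIEC and 156 ± 4.02 in unstimulated f/f organoids. Scp2 fell by 0.91 in dIEC (adjusted p = 7.35e-10) and by 0.58 in f/f (adjusted p = 1.34e-07). The difference of -0.33 between these responses was called (adjusted p = 0.0118), but not after median-of-ratios scaling (adjusted p = 0.0679). Hacl1, which acts in the alpha-oxidation of branched fatty acids, fell by 0.87 in dIEC (adjusted p = 3.4e-10) and by 0.64 in f/f (adjusted p = 1.58e-08). Crot, the peroxisomal carnitine octanoyltransferase, fell by 0.42 in dIEC (adjusted p = 3.1e-05) and by 0.36 in f/f (adjusted p = 0.000147). Ehhadh, from the same organelle, had the smaller changes given above.

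Mitochondrial oxidation genes moved in both directions. Of 19 listed, 18 passed the minimum. With TNF in dIEC 4 rose and 3 fell, or 2 and 7 with median-of-ratios scaling, and in f/f 1 rose and 5 fell, or 1 and 8 with median-of-ratios scaling. Without the 4 libraries that stood apart 5 rose and 7 fell in dIEC and 3 rose and 7 fell in f/f, and without unstimulated f/f library 3 alone 1 rose and 2 fell in f/f. After removal of the GC trend 4 rose and 8 fell in dIEC. Over all tested genes 53.1% were called in dIEC, 33.4% higher and 19.8% lower, and 47.2% in f/f, 26.9% higher and 20.3% lower. In the main fit the called share of this list was below these totals in both genotypes. The same shares are the background for the main list counts below. Median log2 changes were 0.01 in dIEC and -0.05 in f/f. Decr1, the dienoyl-CoA reductase for unsaturated chains, fell by 0.38 in dIEC (adjusted p = 1.93e-05) and by 0.37 in f/f (adjusted p = 4.02e-05). Hadha, a subunit of the mitochondrial trifunctional protein, rose by 0.22 in dIEC (adjusted p = 0.000568), where it measured 74.1 ± 1.13 FPKM with TNF and 63.6 ± 3.67 without. In f/f, Hadhb, the partner subunit, fell by 0.23 (adjusted p = 0.000277), a call lost after quantile normalization (adjusted p = 0.103). Hadha in f/f (0.10, adjusted p = 0.0771) and Hadhb in dIEC (-0.07, adjusted p = 0.168) were not called. Neither difference of responses was called (adjusted p = 0.403 for Hadha and 0.167 for Hadhb). Cpt1a and Acadm, the mitochondrial enzymes among the 8 genes, lie within the range of these changes.

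**Figure D4:**
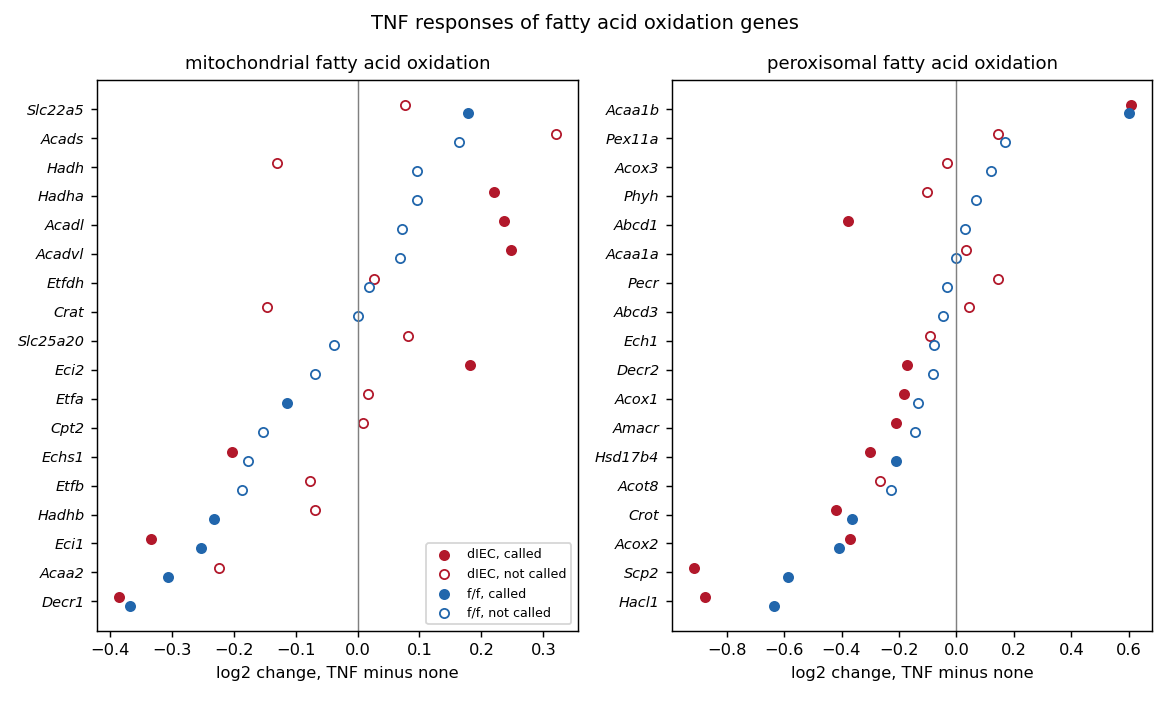
Log2 change with TNF for the tested genes of mitochondrial (left) and peroxisomal (right) fatty acid oxidation, in dIEC (red) and f/f (blue) organoids; filled points were called at an adjusted p under 0.05. Scp2 and Hacl1 had the lowest values on the peroxisomal side in both genotypes, and Decr1 the lowest on the mitochondrial side.

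Pdk4 was the least abundant of the pyruvate dehydrogenase kinases measured, and others rose with TNF. Pdk1 measured 43.0 ± 0.823 FPKM in dIEC with TNF and 47.0 ± 0.873 in f/f with TNF, against 23.0 ± 1.13 in unstimulated dIEC and 20.9 ± 1.20 in unstimulated f/f organoids. Its log2 change was 0.88 in dIEC (adjusted p = 5.42e-10) and 1.14 in f/f (adjusted p = 3.66e-11). Pdk3 rose by 0.50 in dIEC (adjusted p = 1.8e-06) and by 0.55 in f/f (adjusted p = 9.33e-07). The mitochondrial pyruvate carrier fell in both genotypes, Mpc1 by 0.75 in dIEC (adjusted p = 8.9e-08) and by 0.59 in f/f (adjusted p = 1.59e-06). Of the 12 genes of the pyruvate dehydrogenase complex and its regulators, 3 rose and 4 fell in dIEC, or 2 and 5 with median-of-ratios scaling, and 4 rose and 6 fell in f/f.

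Among lipid droplet and lipolysis genes, 12 of 16 passed the minimum. With TNF 5 rose and 3 fell in dIEC, and 4 rose and 1 fell in f/f. With median-of-ratios scaling 4 rose and 4 fell in dIEC and 3 and 3 in f/f, with quantile normalization 3 rose and 5 fell in dIEC and 3 and 4 in f/f, and after removal of the GC trend 5 and 5 in f/f. Leaving out unstimulated dIEC library 1 or TNF-treated dIEC library 2 or 3 left 5 called in dIEC, and leaving out unstimulated f/f library 1 or TNF-treated f/f library 4 left 3 called in f/f. Cidec, a droplet fusion protein, rose by 0.99 in dIEC (adjusted p = 1.44e-05) and by 0.70 in f/f (adjusted p = 0.000406). Pnpla2, the triglyceride lipase ATGL, rose by 0.66 in dIEC (adjusted p = 0.00217) and by 0.66 in f/f (adjusted p = 0.0024). Dgat1, which makes triglycerides, fell by 0.48 in dIEC (adjusted p = 0.000104) and by 0.29 in f/f (adjusted p = 0.0068). Lipoprotein lipase regulators, the setting of Angptl4, were mostly under the minimum, with 2 of 6 tested. Lipg, endothelial lipase, fell by 0.64 in dIEC (adjusted p = 6.18e-06) and by 0.63 in f/f (adjusted p = 9.97e-06). Lmf1, a lipase maturation factor, rose by 0.52 in dIEC (adjusted p = 0.0170), a call lost without unstimulated dIEC library 4 (0.0573) or TNF-treated dIEC library 2 (0.0567), and by 0.58 in f/f (adjusted p = 0.0101).

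Hypoxia target genes, a list to which Pdk1 belongs, rose in 10 of 12 cases in dIEC and 11 of 12 in f/f, with 0 falling. Their summed FPKM were 566 to 584 in dIEC with TNF and 588 to 658 in f/f with TNF, against 283 to 343 in unstimulated dIEC and 256 to 302 in unstimulated f/f organoids. Of 6 tested glucocorticoid target genes, 3 rose and 2 fell in dIEC, or 1 and 2 with quantile normalization, and 1 rose and 0 fell in f/f. In f/f 3 rose without the 4 libraries that stood apart or without TNF-treated f/f library 1, and 2 without unstimulated f/f library 2 or 4. The part of either response in the values of Angptl4 and Pdk4 was not tested.

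Genes with the most similar pattern were found for each of the 7 tested genes by the root mean square difference of z-scored log2(FPKM + 1) over the 16 libraries, where 0 is an identical pattern. Ppara was nearest to Sec16b (0.091) and Cat, the peroxisomal catalase (0.147). Cat measured 108 FPKM in dIEC with TNF and 116 in f/f with TNF, against 186 in unstimulated dIEC and 173 in unstimulated f/f organoids. The nearest genes to Pparg were Akr1b8 (0.354) and Gsta4 (0.383), and to Cpt1a Gstm2 (0.455) and Clint1 (0.476). Akr1b8, an aldo-keto reductase, was likewise lowest in f/f with TNF, with 89.2 FPKM in dIEC with TNF and 44.7 in f/f with TNF, against 115 in unstimulated dIEC and 118 in unstimulated f/f organoids. Angptl4 was nearest to Pard6b (0.193) and Cldn4 (0.197), and Plin2 to Ube2g2 (0.324) and Cfl1 (0.338). For the enzymes, Acadm was nearest to Tm4sf5 (0.244) and Slc7a9 (0.263), and Ehhadh to Rdh11 (0.266) and Adipor2 (0.268). Among the 7 genes themselves, Ehhadh was nearest to both Ppara (0.424) and Acadm (0.464), Pparg and Cpt1a were nearest to each other (0.653), and so were Angptl4 and Plin2 (0.684).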

How the data were processed

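RNA sequencing levels of small intestinal organoids were taken from the authors' deposited table, which gives 1 FPKM value per row and library. Per the submitters' processing notes, TopHat2 2.1.1, Cufflinks 2.2.1, Cuffdiff and build mm10 are listed, with no order or settings stated. As to the division of shared reads, it was not given in the sources used here. None of the authors' p-value columns was used.

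From these values, 11097 rows averaging 1 FPKM or more (12750 were below) were fitted as log2(FPKM + 1) with limma 3.58.1 in R 4.3.3, 1 mean per group over 16 libraries, moderated variances with a trend (12 residual and 2.52 prior degrees of freedom), two-sided, Benjamini-Hochberg over all rows tested. The script was tested on simulated data. Pdk4 was tested by exact two-sided permutation of mean FPKM over 70 splits. Depth was approximated from FPKM steps of 51 single-transcript genes; whole reads were not recovered, so no count test was run. It uses annotated transcript lengths, and the estimate of 42200000 fragments in f/f library 1 has quartiles over genes of 40000000 and 42700000.

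The genes, lists and tests were chosen with earlier results of these data known. Named genes were the 8 members, Atg16l1, early TNF genes, up to 4 genes of smallest adjusted p per list and contrast, and the 2 nearest genes per called member. Some genes are in more than 1 list. A listed gene is not reported here. Genes named as marker examples were chosen from the fixed marker lists.

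Libraries with the same replicate number deviated together between the 2 dIEC groups (r across genes 0.118 to 0.419, over 0.1 in 4 of 4 pairs). TNF-treated dIEC library 3 was nearer to unstimulated dIEC library 1 (r = 0.159) than to unstimulated dIEC library 3 (r = 0.118). TNF-treated dIEC library 4 and TNF-treated f/f library 1, of different genotypes, reached r = 0.390. These correlations therefore do not settle whether the numbers pair the samples, and no label used here states it. Alternatives were the pseudocount, the minimum, 2 scalings, sample weights, a GC correction, a replicate block, only the compared groups, the 4 libraries that stood apart left out, and each library left out.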

Additional observations from a re-analysis of the deposited data

Results flagged for a closer look

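In 3 of 32 sets of 4 libraries (8 genes in 4 groups), the highest or lowest library lay far from the others for the group's range. Chance gives this in about 1 in 20 groups. For Cpt1a in unstimulated f/f organoids, library 1 (20.1 FPKM, the others 24.4 to 24.8) was separated by 0.924 of the range. For Acadm in the same group, library 1 (51.9 FPKM, the others 54.2 to 54.6) was separated by 0.848 of the range. For Pdk4 in TNF-treated dIEC organoids, library 4 (0.234 FPKM, the others 0.214 to 0.215) was separated by 0.961 of the range, at about 30 fragments against 28 to 29.

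The TNF responses of the 2 genotypes differed by the interaction test of limma for Ppara (-0.34, adjusted p = 0.0450) and for Pparg (0.20, adjusted p = 0.0470). Both values lay close to the threshold. The call for Ppara was lost in 17 of 27 alternatives and the call for Pparg in 16 of 27. The cause of neither difference was tested.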

How the results depend on the processing

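No gene whose own calls were followed through the alternatives changed direction while called. Other list genes were followed by counts only. Among the receptor binding partners, all with positive main log2 changes under TNF in f/f, removal of the GC trend left 1 called lower there. Of 7 tested genes, the number called between dIEC and f/f without stimulation was 0, but 1 with sample weights and 2 after removal of the GC trend. With TNF it was 3, but 5 with sample weights and 5 after removal of the GC trend. For the difference of responses it was 2, but 1 with log2(FPKM + 0.1), 1 with no minimum mean, 1 with a minimum mean of 5 FPKM, 1 with no minimum mean and log2(FPKM + 0.1) together (chosen after seeing the data), and 5 with sample weights. With the replicate block it was 4 (Ppara, Pparg, Cpt1a and Ehhadh), and over all genes 1231 against 365. The block changed no call of the 7 genes for TNF in dIEC; between genotypes with TNF it lost Ppara (adjusted p = 0.0630), and for TNF in f/f it added Acadm (adjusted p = 0.00669) and Ehhadh (adjusted p = 0.0382). Same-number libraries had r over 0.1 in 1 of 4 pairs in each genotype comparison and in 3 of 4 for TNF in f/f. For none of the comparisons do these values settle whether the numbers pair libraries, so the block rests on the numbers alone.

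Leaving out each library gave 0 to 0 genes called without stimulation, 2 to 3 between genotypes with TNF, 4 to 6 for TNF in f/f, 5 to 5 for TNF in dIEC, and 0 to 2 for the difference of responses. Over all genes, calls without stimulation were 258, against 1781 with sample weights and 709 after removal of the GC trend. With TNF they were 721, against 2556 and 1728, and for the difference 365, against 1920 with sample weights. The cause was not tested. Pdk4 rests on 7 to 38 fragments per library, which limits its fold changes.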
